A study of Drosophila melanogaster with 14 samples.

Results

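The bithorax complex of Drosophila melanogaster was described here as the stretch of chromosome arm 3R from 16.65 to 16.975 Mb (Release 6), which holds the homeotic genes Ubx, abd-A and Abd-B. Every peak on 3R that overlapped this stretch was taken from 6 deposited peak lists. This gave 40 of the 8279 peaks of the series. Joined where they overlapped by at least 1 bp, the 40 peaks fell at 12 separate places, which are numbered 1 to 12 below from the proximal (Ubx) end.

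Whole adult flies, 2 to 3 days old and of strain Oregon-R per the labels, were profiled by ChIP-seq with antibodies to the HA tag, dCTCF or CP190. The deletion line carried the allele dCTCFΔ705-733, which lacks the residues that its name gives, and the wild-type line carried the allele labelled dCTCFwt. How the tag and the alleles were placed in the genome is not given in the sources used here. Each combination of antibody and genotype had 2 libraries, and 1 mouse and 1 rat preimmune library, both from flies labelled wt, served as controls for both genotypes. One peak list per antibody and genotype was deposited for both libraries together, so no value below has a spread between replicates and no test between genotypes was possible. Read depth is unknown. A whole fly mixes all tissues, so binding in fewer cells and weaker binding in each cell cannot be told apart.

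Ubx, abd-A and Abd-B encode the transcription factors that set the identity of the fly's posterior thorax and abdomen. They lie on the chromosome in the order of the body parts they act in, and each is switched by large regulatory domains that serve successive segments. Boundary elements keep these domains apart, so that an active domain does not spread into its silent neighbour. dCTCF, the fly homologue of the vertebrate insulator protein CTCF, is a zinc finger protein that binds several of these boundaries, and CP190 is a protein that many fly insulator proteins bring to chromatin. The best known boundaries are, from the proximal side, Fub, Fab-3, Fab-4, Mcp, Fab-6, Fab-7 and Fab-8. The gene table used here lists Fub, Fab-3 and Fab-4 only as other names of abd-A, and Fab-6, Fab-7 and Fab-8 only as other names of Abd-B, without positions. The names Fub, Mcp, Fab-6 and Fab-8 were therefore given to places 3, 6, 7 and 8 from the general map of the complex, by their position and order, and not from a file. The other places carry no boundary name.

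The complex was occupied unevenly. Places 6 to 12 lay in the distal stretch between 16868402 and 16971183, which holds Mcp, Fab-6, Fab-8 and Abd-B. Proximal to them lay 5 places, and 3 of those 5 had a peak in 1 list only. No HA or dCTCF-antibody peak overlapped Ubx or abd-A in either genotype. Abd-B was overlapped by 3 HA peaks in the deletion line and 4 in wild type, by 3 dCTCF-antibody peaks in each genotype, and by 1 CP190 peak in each genotype. CP190 also had 1 peak that reached into Ubx in each genotype, that of place 1, and 0 over abd-A. Only the edge of the place 1 peak overlapped Ubx. Its summits, at 16656353 in the deletion line and 16656334 in wild type, lay outside the gene, which starts at 16656623.

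**Figure D1:**
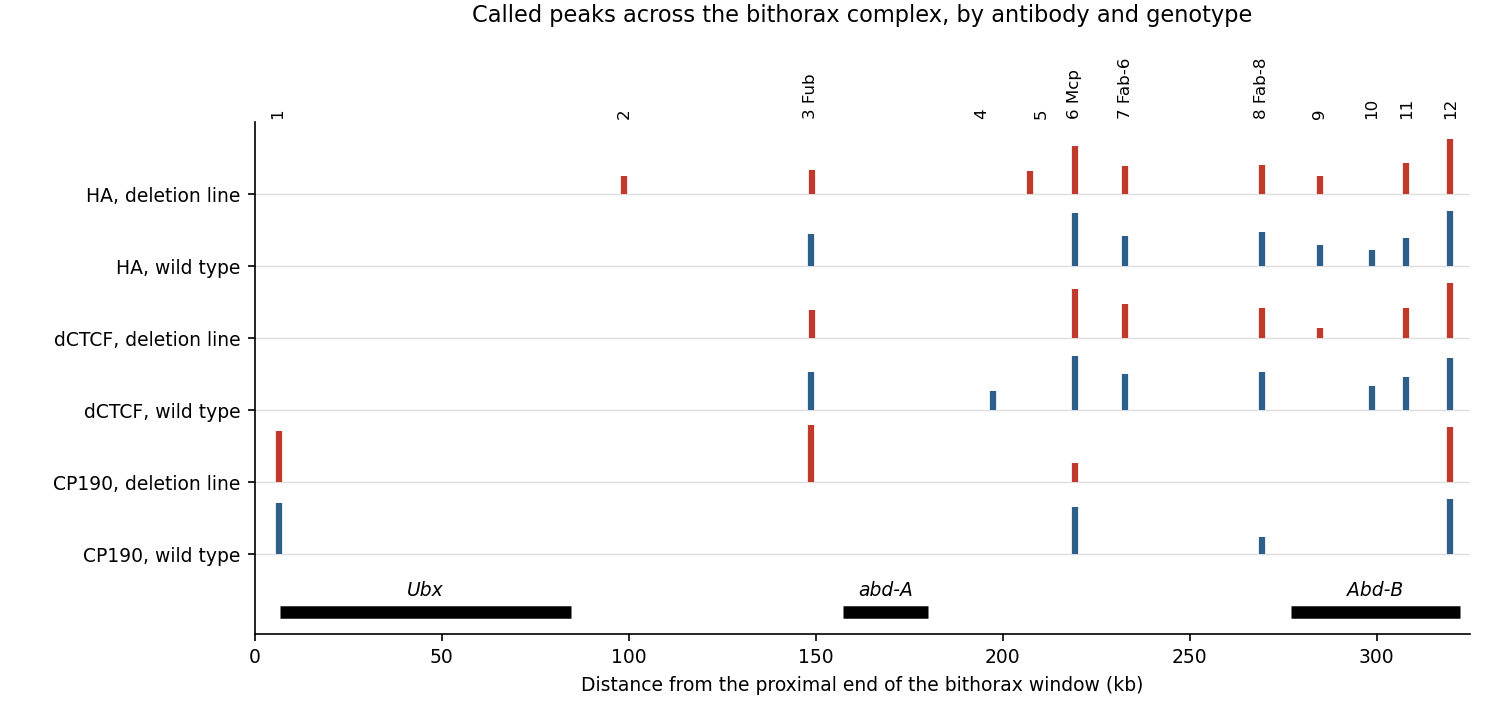
Called peaks by distance in kb from the proximal end of the window, with 1 row for each antibody and genotype, the deletion line (red) above wild type (blue). Each bar stands at a summit and is taller the stronger the peak is within its own list; black bars are the 3 homeotic genes. Places 6 (Mcp) and 12 have a bar in all 6 rows. No row has a bar between places 7 (Fab-6) and 8 (Fab-8), and wider empty stretches lie proximal to place 4.

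By antibody, the window held 9 HA peaks in the deletion line and 8 in wild type, 7 dCTCF-antibody peaks in the deletion line and 8 in wild type, and 4 CP190 peaks in each genotype. Per 100 kb this was 2.77 HA peaks in the deletion line and 2.46 in wild type, where the rest of 3R had 0.387 in the deletion line and 0.410 in wild type. The dCTCF antibody gave 2.15 peaks per 100 kb in the deletion line and 2.46 in wild type, where the rest of the arm had 0.463 in the deletion line and 0.520 in wild type. For CP190 the window had 1.23 per 100 kb in both genotypes, where the rest of the arm had 2.35 in the deletion line and 1.84 in wild type. HA and dCTCF peaks thus lay more densely in the window than along the arm, and CP190 peaks less densely; these densities are descriptions without a test.

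The first question was whether dCTCF with the deletion was found where wild-type dCTCF was. Of the 9 HA peaks of the deletion line, 7 overlapped a wild-type HA peak (77.8%, 95% Wilson interval 45.3 to 93.7, counting error only), where the share over the whole list was 83.3%. Of the 8 wild-type HA peaks, 7 overlapped a deletion HA peak (87.5%, 52.9 to 97.8), where the whole list had 84.2%. With the dCTCF antibody, 6 of 7 deletion peaks overlapped a wild-type peak (85.7%, 48.7 to 97.4) and the whole list had 79.5%. For wild-type peaks of that antibody the count was 6 of 8 (75.0%, 40.9 to 92.9) and the whole list had 74.0%. All 4 shares stood near those of the whole lists. The whole-list values lay within the intervals, but with 7 to 9 peaks these are too wide to show likeness. Both genotypes of an antibody were set against the same preimmune library. HA and CP190 share the mouse library, and such overlaps share the errors of their control.

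A dCTCF site, where HA and dCTCF-antibody peaks of 1 genotype overlapped, was found at 7 places in the deletion line and at 7 in wild type. In the deletion line 7 of 9 HA peaks had such a partner (78.5% over the whole list), and in wild type 7 of 8 (84.7%). In the other direction 7 of 7 dCTCF-antibody peaks of the deletion line overlapped an HA peak (76.1% over the whole list), as did 7 of 8 in wild type (75.4%). Places 3, 6, 7, 8, 11 and 12 were sites in both genotypes, which is 6 of the 7 wild-type sites. Over the whole series, 459 of the 531 wild-type sites were sites of both genotypes. Place 9 was a site in the deletion line only, and place 10 a site in wild type only.

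CP190 was called at 3 of the 7 dCTCF sites of the deletion line (57.7% over the whole series) and at 3 of 7 in wild type (68.0%). At the 6 sites of both genotypes it was called at 3 in the deletion line (50.0%, 18.8 to 81.2; whole series 59.3%) and at 3 in wild type (50.0%, 18.8 to 81.2; whole series 70.2%). These counts were equal, but the places were not the same. CP190 was called in both genotypes at 2 of the 6 (place 6, Mcp, and place 12; whole series 56.4%), in the deletion line only at 1 (place 3, Fub; 2.83%), in wild type only at 1 (place 8, Fab-8; 13.7%) and in neither at 2 (place 7, Fab-6, and place 11; 27.0%). Of the 4 CP190 peaks of the deletion line, 3 had a wild-type CP190 peak (75.0%, 30.1 to 95.4; whole list 73.9%), and of the 4 of wild type, 3 had a deletion peak (75.0%; whole list 93.4%).

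Each place is described next with its values in every list that held it. Fold enrichment is the authors' ratio to preimmune at a peak, and −log10 p is the authors' p-value of that enrichment in each of 2 sets of calls behind a list. Folds of different lists are not on 1 scale. The median fold was 35.9 in the deletion HA list and 10.3 in the wild-type HA list, 6.57 in the deletion dCTCF list and 7.91 in the wild-type one, and 7.27 in the deletion CP190 list and 7.13 in the wild-type one. Strength is therefore given as the rank by fold within a list, where 1 is strongest. To set genotypes side by side, peaks that were each other's best overlap in both genotypes were ranked among themselves, 519 pairs for HA, 511 for dCTCF and 2337 for CP190, so that both ranks have the same length.

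Mcp (place 6, 3R:16868402-16870104) lies inside the long noncoding RNA gene lncRNA:iab8 and inside MSAmiP, and it separates the iab-4 domain of abd-A from the iab-5 domain of Abd-B. All 6 lists held a peak there, with summits within 43 bp of each other. HA enrichment was 173-fold in the deletion line (rank 127 of 623) and 46.0-fold in wild type (rank 53 of 627). With the dCTCF antibody it was 34.2-fold in the deletion line (rank 119 of 648) and 69.9-fold in wild type (rank 43 of 700). CP190 enrichment was 3.75-fold in the deletion line (rank 2576 of 3164) and 16.8-fold in wild type (rank 554 of 2517). HA and the dCTCF antibody thus stood in the stronger part of every list, and CP190 in the stronger part of the wild-type list and among the weak peaks of the deletion list.

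Both sets of calls behind each list gave like values at Mcp. The −log10 p of CP190 was 28.0 and 34.4 in the 2 sets of the deletion line and 315 and 345 in those of wild type. For HA it was 4756 and 4663 in the deletion line and 1461 and 1255 in wild type, and for the dCTCF antibody 1099 and 945 in the deletion line and 2188 and 2320 in wild type. For each antibody the gap between genotypes was wider than the gap between the 2 sets of either list, with HA higher in the deletion line. Whether the 2 sets are the replicates is not stated, and read depth is unknown. The gap between sets is therefore no measure of the spread between replicates.

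Among the 2337 CP190 pairs, Mcp stood at rank 2222 in the deletion line and at rank 542 in wild type, which is 71.9 percentage points of the ranking further down in the deletion line. Mcp included, 7 of the 2337 pairs stood as far down. All 7 were among the 260 pairs at dCTCF sites of both genotypes, and 0 of the 1893 pairs away from every HA and dCTCF-antibody peak did. The median difference, deletion minus wild type, was 13.5 percentage points for the 260 pairs and −2.44 for the 1893. The central 95% ran from −4.95 to 71.7 for the 260 pairs and from −21.4 to 17.9 for the 1893. Among these pairs Mcp was thus at the far end of its own class. Only peaks called in both genotypes enter this ranking. Of the 459 dCTCF sites of both genotypes, 63 (13.7%) had CP190 called in wild type only, and such a lost call is not ranked. With ranks by p-value in place of fold the Mcp difference was 68.5 points for the first set of calls and 65.8 for the second. HA at Mcp stood at rank 119 of 519 pairs in the deletion line and 53 in wild type, a difference of 12.7 points that 63 pairs reached. The dCTCF antibody stood at rank 119 of 511 pairs in the deletion line and 43 in wild type, a difference of 14.9 points that 46 pairs reached.

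**Figure D2:**
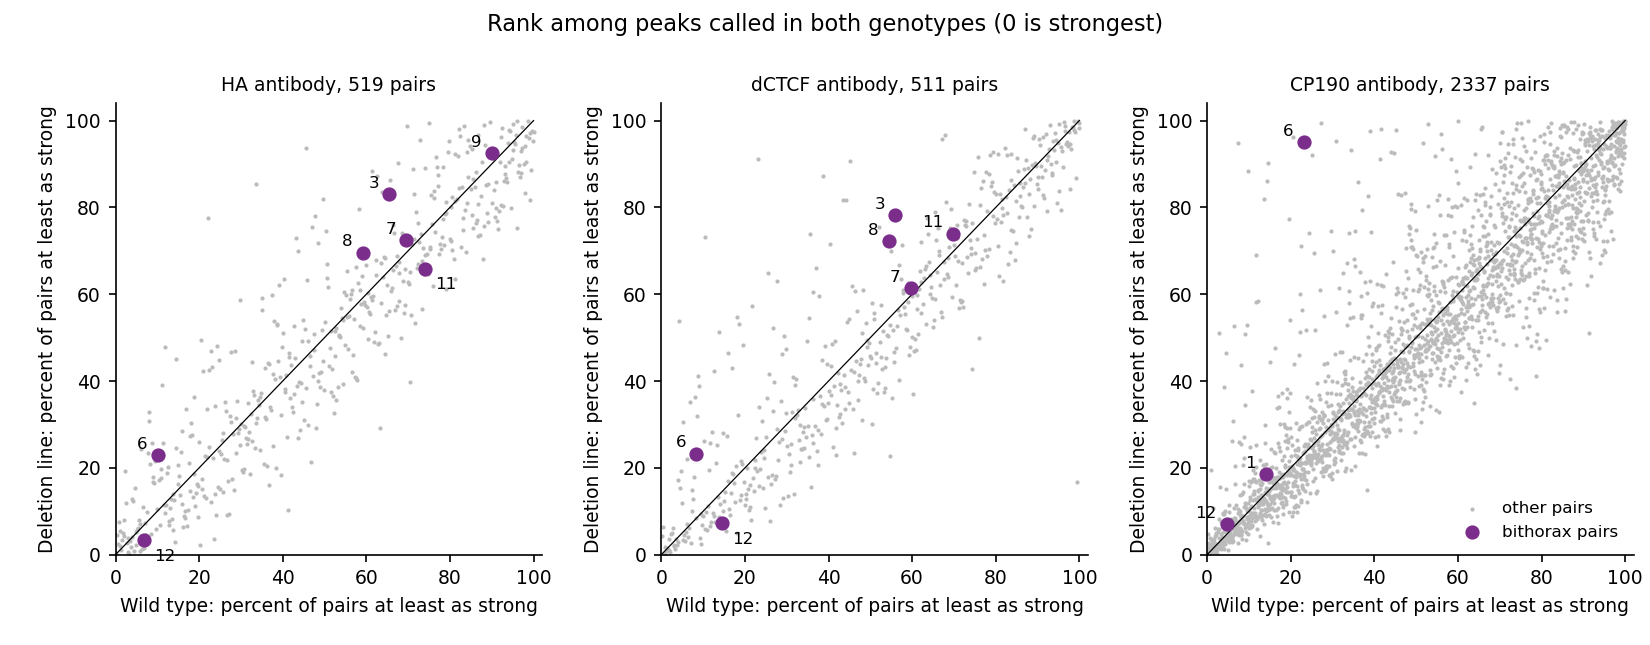
Rank, as the percent of pairs at least as strong, in the deletion line (vertical axis) and in wild type (horizontal axis) for peaks called in both genotypes, 1 panel per antibody; purple points are the bithorax pairs with their place numbers, grey points all other pairs, and the line marks equal rank. Place 6 (Mcp) stands at 95.1% in the deletion line and 23.2% in wild type for CP190, far above the line, while for HA and the dCTCF antibody it stays near the strong end in both.

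Place 12 (3R:16968549-16971183) lies inside Abd-B, with summits 2499 to 2542 bp proximal to the distal end of the gene at 16972236. Abd-B is transcribed from its distal side, so this end holds its most distal start. Like Mcp, the place had a peak in all 6 lists, again with summits within 43 bp. HA enrichment was 360-fold in the deletion line (rank 23 of 623) and 51.8-fold in wild type (rank 35 of 627). Enrichment with the dCTCF antibody was 63.7-fold in the deletion line (rank 37 of 648) and 54.6-fold in wild type (rank 74 of 700). CP190 enrichment was 49.3-fold in the deletion line (rank 169 of 3164) and 45.6-fold in wild type (rank 112 of 2517). It was the strongest HA place of the window in both genotypes, and the strongest CP190 place in wild type.

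The −log10 p of CP190 at place 12 was 1281 and 1274 in the 2 sets of the deletion line and 1258 and 1334 in those of wild type. These sets are not known to be replicates, so their values give no range for a genotype. Among CP190 pairs place 12 stood at rank 164 in the deletion line and 109 in wild type, a difference of 2.35 percentage points that 668 of the 2337 pairs reached. Place 12 thus had strong CP190 peaks in both genotypes, whereas Mcp had one in wild type and a weak one in the deletion line. The HA peak there was 2635 bp wide in the deletion line and 1055 bp wide in wild type. Of all 519 HA pairs, 81.5% were wider in the deletion line.

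Fub (place 3, 3R:16797867-16799477) lies in the interval between Glut3, a gene for a sugar transporter, and lncRNA:CR45750, and overlaps no annotated gene. It separates the bxd and pbx domains of Ubx from the iab-2 domain of abd-A. HA enrichment was 10.2-fold in the deletion line (rank 445 of 623) and 8.29-fold in wild type (rank 340 of 627). The dCTCF antibody gave 3.97-fold in the deletion line (rank 402 of 648) and 13.1-fold in wild type (rank 292 of 700). dCTCF at Fub was thus of middling or low rank in every list. Among pairs the HA peak stood 17.5 points further down in the deletion line, which 43 of 519 pairs reached, and the dCTCF-antibody peak 22.3 points further down, which 32 of 511 reached.

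CP190 at Fub was called in the deletion line only, at 136-fold enrichment and rank 3 of 3164, with −log10 p of 4639 and 4643 in the 2 sets of calls. It was the strongest CP190 peak of the window in any list. The wild-type CP190 list had no peak within 69288 bp of the place, the nearest being that at Mcp. The CP190 summit lay 208 bp from the HA summit and 217 bp from the dCTCF-antibody summit of the deletion line. At Mcp and place 12 these distances were 22 to 31 bp in the deletion line. Over all pairs of the deletion line, CP190 and HA summits were within 200 bp in 86.1% of 316 pairs, with a median distance of 33.5 bp.

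The absence of a wild-type CP190 peak at Fub has to be read with the limits of the lists, which were set by the irreproducible discovery rate (IDR), a measure of how poorly a call repeats from one set to the other. The highest global IDR was 0.00999 in each CP190 list and 0.00998 among HA peaks of the deletion line. It was 0.0493 among HA peaks of wild type, and with the dCTCF antibody it was 0.0493 in the deletion line and 0.0499 in wild type. The median global IDR of the strongest 1% of CP190 peaks was 0.00433 in the deletion line and 0.00347 in wild type, and that of the next 9% was 0.00225 in the deletion line and 0.00148 in wild type. The Fub peak of the deletion line had a global IDR of 0.00689. Of the 10 strongest CP190 peaks, 2 of the deletion line and 3 of wild type had no peak in the other genotype. Of the next 9% below the strongest 1%, 2 of 285 in the deletion line and 0 of 226 in wild type had none. Whether a wild-type peak at Fub was removed by this limit was not tested, since the lists hold only the peaks that passed.

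**Figure D3:**
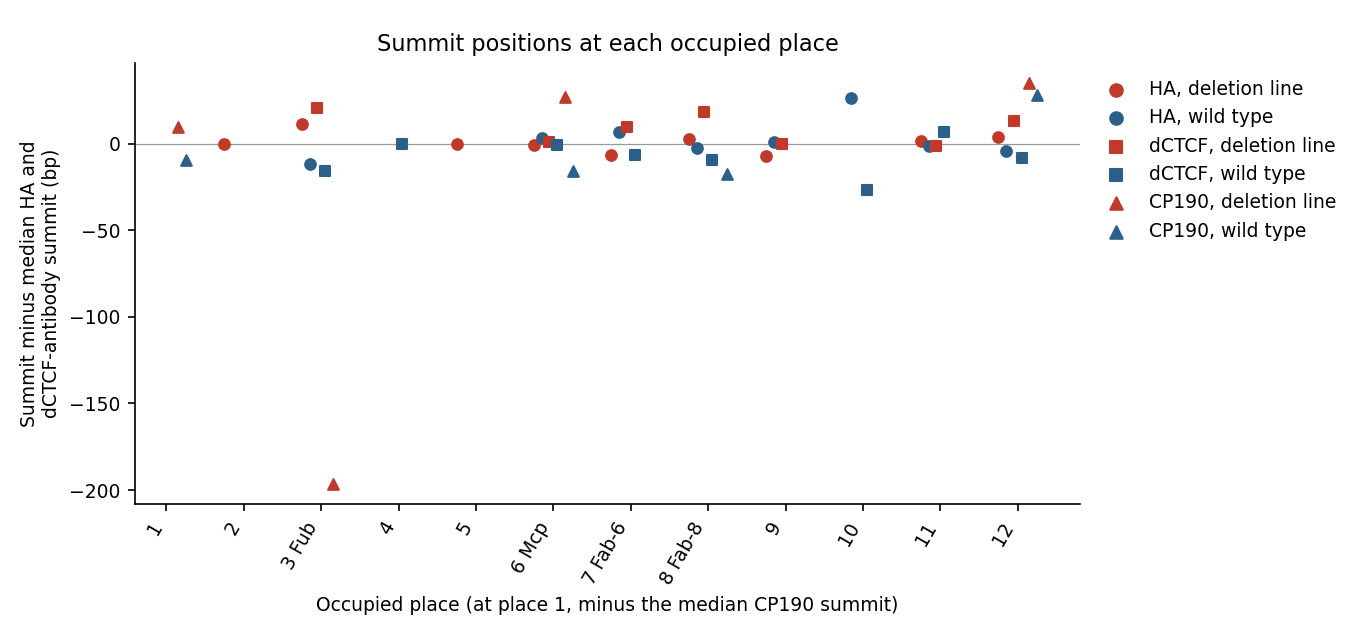
Summit position at each of the 12 places in bp, relative to the median summit of the HA and dCTCF-antibody peaks there (at place 1, of the CP190 peaks); shapes mark the antibody, red the deletion line and blue wild type. Nearly all summits fall close to 0, and the CP190 summit of the deletion line at place 3 (Fub), 208 bp from that of HA, stands apart.

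Fab-8 (place 8, 3R:16918993-16919518) lies inside lncRNA:iab8 and 7693 bp proximal to Abd-B, and it separates the iab-7 and iab-8 domains of Abd-B. HA enrichment was 19.8-fold in the deletion line (rank 369 of 623) and 10.8-fold in wild type (rank 307 of 627). With the dCTCF antibody it was 4.70-fold in the deletion line (rank 370 of 648) and 14.3-fold in wild type (rank 284 of 700). A CP190 peak stood in the wild-type list only, at 3.50-fold (rank 2139 of 2517), with −log10 p of 19.8 and 22.1 in the 2 sets. dCTCF was of middle rank in all 4 lists, and the CP190 peak was a weak one. In the decile of the wild-type CP190 list that holds it, 217 of 252 peaks (86.1%) had a deletion CP190 peak. Among pairs, the dCTCF-antibody peak stood 17.8 points further down in the deletion line (36 of 511 pairs as far) and the HA peak 10.4 points (80 of 519).

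Fab-6 (place 7, 3R:16882361-16883120) lies inside lncRNA:iab8 and MSAmiP, 12256 bp distal to Mcp, and separates the iab-5 and iab-6 domains of Abd-B. HA enrichment was 18.5-fold in the deletion line (rank 384 of 623) and 6.67-fold in wild type (rank 362 of 627). Enrichment with the dCTCF antibody was 6.88-fold in the deletion line (rank 315 of 648) and 10.9-fold in wild type (rank 313 of 700). CP190 had no peak there in either genotype, and the nearest CP190 peak was that at Mcp. Among pairs the HA peak differed by 2.89 points and the dCTCF-antibody peak by 1.76 points between genotypes, which 165 of 519 and 167 of 511 pairs reached. By the p-values of the second set of calls these differences were 5.97 points for HA and 8.22 points for the dCTCF antibody, and by those of the first set 0.963 and 0.978 points.

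Between Fab-6 and Fab-8 no list held a peak over 35872 bp. Longer gaps without a peak followed place 1 (91681 bp), place 2 (48941 bp) and place 3 (47765 bp), so this gap was not unusual for the window. Fab-7, the boundary between the iab-6 and iab-7 domains, lies in this stretch on the general map of the complex. It is known to work with other DNA-binding proteins and to lack a dCTCF site. No peak of CP190 was called there in either genotype. A missing peak shows only that none passed the authors' threshold.

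Of the 12 places, 4 lay inside Abd-B, and 3 of these, places 9, 10 and 11, were weaker than place 12 in every list that held them. Place 11 (3R:16957657-16958189) was a dCTCF site in both genotypes. HA enrichment was 24.5-fold in the deletion line (rank 350 of 623) and 5.89-fold in wild type (rank 386 of 627). The dCTCF antibody gave 4.52-fold in the deletion line (rank 379 of 648) and 7.02-fold in wild type (rank 366 of 700). CP190 was called there in neither genotype. Among pairs the difference, deletion minus wild type, was −8.09 points for HA (stronger in the deletion line) and 4.11 points for the dCTCF antibody (weaker; 7.44 points by the p-values of the second set), so the antibodies differed in sign.

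Place 9 (3R:16934327-16935123) had an HA peak of 6.54-fold in the deletion line (rank 518 of 623) and of 3.21-fold in wild type (rank 484 of 627). The dCTCF antibody had a peak in the deletion line only, at 1.86-fold, which was the lowest fold of that list (rank 648 of 648), with a global IDR of 0.0311. In the same decile of that list 12 of 65 peaks (18.5%) had a wild-type peak. The difference in site status between genotypes thus rested on the weakest peak of the deletion list. The 3 summits were nevertheless within 8 bp of each other.

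Place 10 (3R:16948552-16948945) had an HA peak in wild type only, at 2.48-fold (rank 554 of 627), and a dCTCF-antibody peak in wild type only, at 2.87-fold (rank 493 of 700). Their summits were 53 bp apart. In the same deciles of these lists, 35 of 63 HA peaks (55.6%) and 36 of 70 dCTCF-antibody peaks (51.4%) had a deletion peak. Peaks of this strength therefore often had no partner in either list. The −log10 p values were 10.6 and 12.1 for HA and 13.0 and 11.8 for the dCTCF antibody.

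The remaining places had no dCTCF site in either genotype. Place 1 (3R:16655327-16656888) covered the facing ends of modSP, a gene for a serine protease of innate immunity, and of Ubx, whose transcription ends there. It held CP190 alone, at 27.6-fold in the deletion line (rank 441 of 3164) and 24.5-fold in wild type (rank 340 of 2517). The summits of the genotypes were 19 bp apart, and the −log10 p was 581 and 557 in the deletion line and 531 and 548 in wild type. Among pairs it stood at rank 435 in the deletion line and 332 in wild type, a difference of 4.41 points that 536 of the 2337 pairs reached. The nearest dCTCF or HA peak of any list was at least 79001 bp away. This place, at the proximal edge of the complex, was thus the only CP190 peak of the window without dCTCF in either genotype, and it had nearly the same strength in both.

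Place 2 (3R:16748570-16748925) lies inside lncRNA:bxd, in the regulatory region upstream of Ubx, and held an HA peak of the deletion line alone (6.39-fold, rank 523 of 623). Place 5 (3R:16857030-16857456) lies inside lncRNA:iab8, 532 bp from lncRNA:iab4, the gene that contains the microRNA mir-iab-4, and also held an HA peak of the deletion line alone (9.43-fold, rank 456 of 623). Place 4 (3R:16847243-16847597), inside lncRNA:iab8, held a dCTCF-antibody peak of wild type alone (2.39-fold, rank 570 of 700). Each of the 3 had 1 antibody in 1 genotype. In the same deciles of their lists, 31 of 61 (50.8%), 49 of 63 (77.8%) and 20 of 71 (28.2%) peaks had a peak in the other genotype, for places 2, 5 and 4 in that order.

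**Figure D4:**
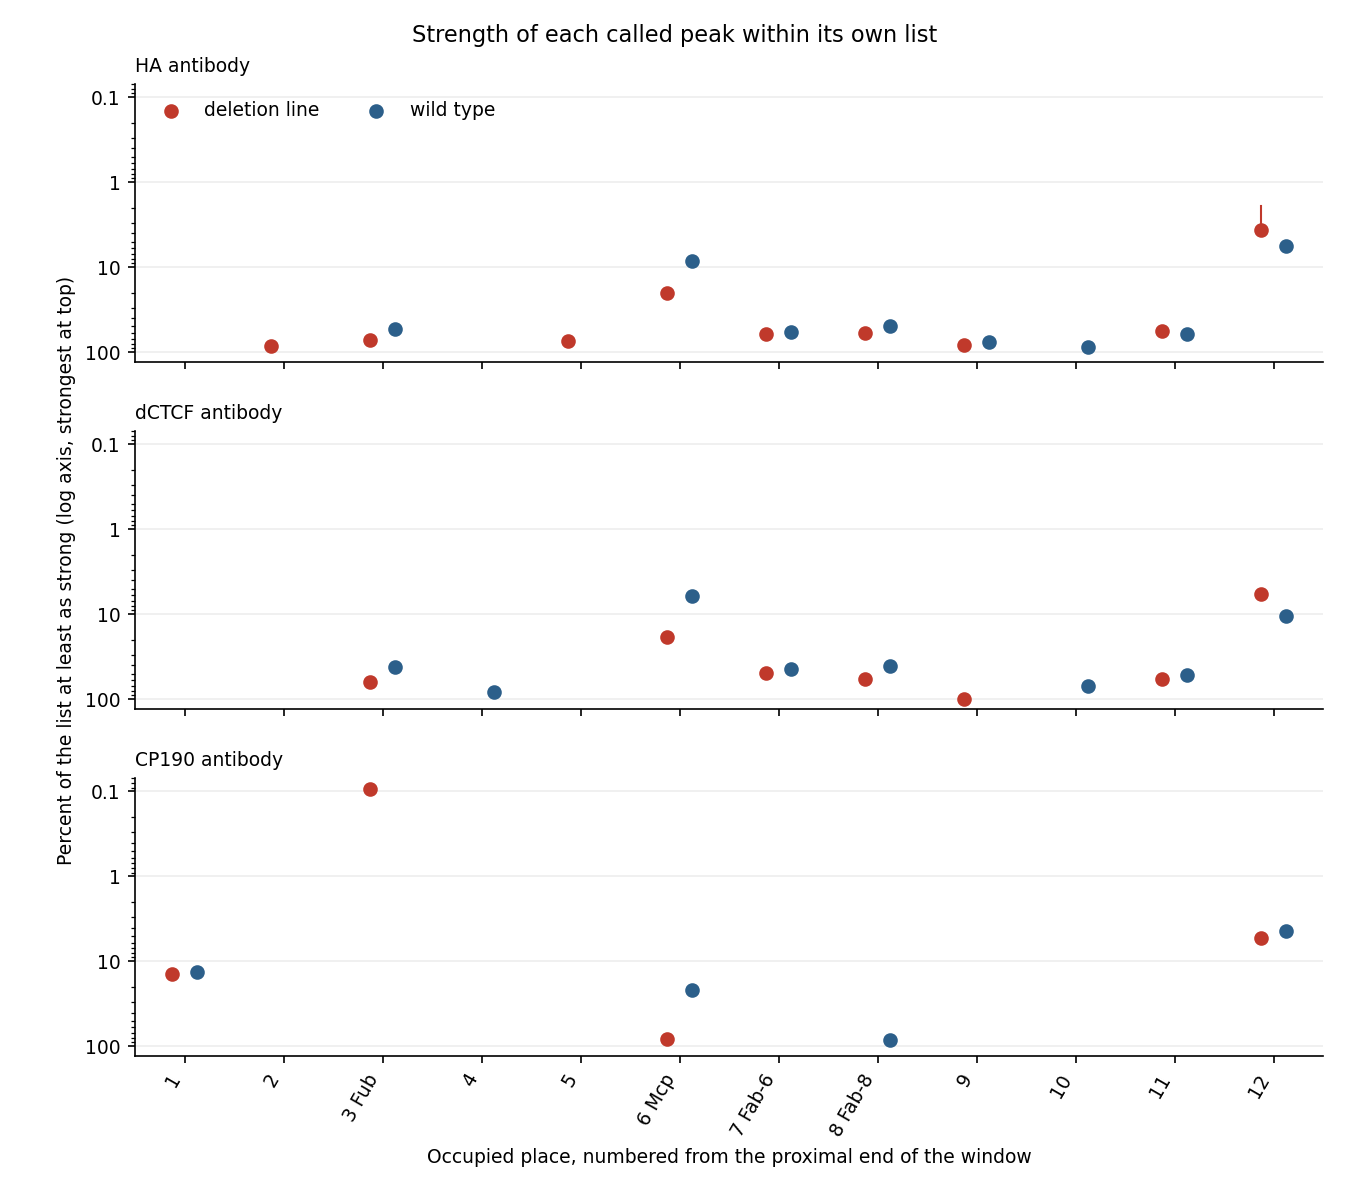
Percent of the list at least as strong (log axis, strongest at the top) for each called peak, by place and antibody, with the deletion line in red left of wild type in blue. Points are ranks by fold enrichment and thin lines reach to the ranks by the p-values of both sets of calls. Places 6 (Mcp) and 12 lead for HA and the dCTCF antibody in both genotypes, and the deletion CP190 peak at place 3 (Fub) has rank 3 of 3164.

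Across the window, 19 of the 40 peaks stood in the strongest 50% of their list, 2 of 9 HA peaks in the deletion line and 3 of 8 in wild type (49.9% by construction in both lists), 3 of 7 dCTCF-antibody peaks in the deletion line and 5 of 8 in wild type (50.0% in both), and 3 of 4 CP190 peaks in each genotype (50.0% in both). HA peaks in the strongest 50% were those at Mcp and place 12 in both genotypes and, in wild type, that at Fab-8. Among HA pairs 5 of 7 stood lower in the ranking in the deletion line (43.7% of all 519 pairs), and among dCTCF-antibody pairs 5 of 6 stood lower (38.4% of all 511). The median difference over all pairs was −0.96 points for HA and −1.57 for the dCTCF antibody, with a central 95% of −18.3 to 27.0 and of −17.2 to 34.8. Every HA and dCTCF-antibody pair of the window lay within those ranges. All 3 CP190 pairs stood lower in the deletion line (40.6% of all 2337 pairs), by 2.35 points at place 12, 4.41 at place 1 and 71.9 at Mcp. Of the 3, Mcp lay outside the central 95% of all CP190 pairs (−19.5 to 32.2).

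HA and dCTCF-antibody summits coincided closely. In the deletion line they were 2 to 16 bp apart at the 7 sites, with a median of 9 bp, the same as the median of 9 bp over all 488 pairs. In wild type they were 4 to 53 bp apart at 7 sites, with a median of 7 bp, where all 525 pairs had 10 bp. Between genotypes, summits of pairs were 3 to 23 bp apart for HA, 2 to 36 bp for the dCTCF antibody and 7 to 43 bp for CP190. The position of dCTCF at each shared place was thus the same in both genotypes to within 36 bp for both antibodies.

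The 2 sets of calls behind each list gave like values at the 40 peaks. The −log10 p of the second set was 0.756 to 1.21 times that of the first for HA in the deletion line and 0.750 to 1.19 times in wild type. It was 0.602 to 1.01 times for the dCTCF antibody in the deletion line and 0.907 to 1.12 times in wild type. For CP190 it was 0.959 to 1.23 times in the deletion line and 1.03 to 1.12 times in wild type. The lowest ratios, 0.602 at Fab-6 and 0.609 at Fub for the dCTCF antibody in the deletion line, were below the central 95% of that list (0.617 to 1.33). No other of the 40 peaks had as wide a gap between its sets.

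**Figure D5:**
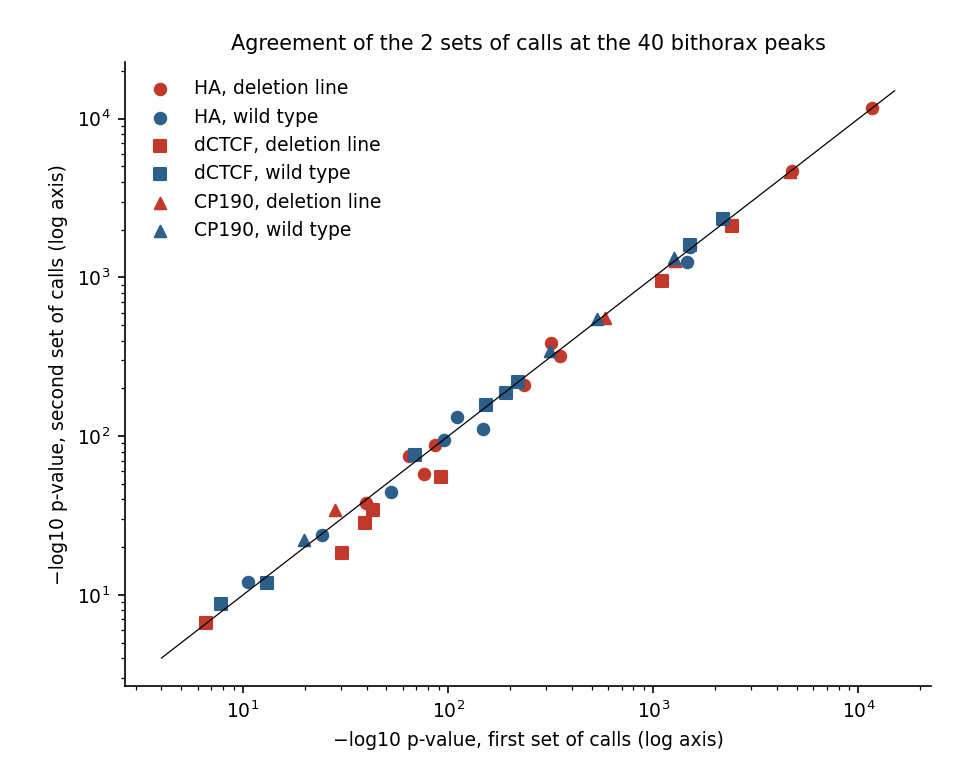
−log10 p-value in the second set of calls against that in the first (both log axes) for the 40 bithorax peaks; shapes mark the antibody, red the deletion line and blue wild type, and the line marks equal values. The points follow the line from the weakest peak to the HA peak of place 12 in the deletion line (11617 and 11733), with most dCTCF-antibody peaks of the deletion line below it, the lowest ratio being 0.602.

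The Antennapedia complex, the other homeotic cluster on 3R (lab to Antp, 6661427 to 6999228), was used for comparison. It held 5 HA peaks in the deletion line and 4 in wild type, 4 dCTCF-antibody peaks in each genotype and 12 CP190 peaks in each. In the bithorax window 3 of 4 CP190 peaks of each genotype had a partner in the other genotype, against all 12 in the Antennapedia complex. There, 4 of 4 wild-type dCTCF sites were sites of both genotypes, where the whole series had 459 of 531. CP190 was called at 3 of these 4 sites in each genotype. The bithorax window thus held more HA and dCTCF-antibody peaks and fewer CP190 peaks than the Antennapedia complex, a difference that was not tested.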

How the data were processed

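The lists are ChIP-seq peaks of whole flies. Per the submitters' processing notes, cutadapt, Bowtie2, Picard and deepTools were used, and dm6 and dm3 are both named. The peak caller is not given in the sources used here. The last peak on 3R ends at 32068772 and the last gene of the Release 6 table on that arm at 32068441, so the lists were read as Release 6, 1-based. The 20 columns of each deposited list follow the output of IDR for 2 sets of calls; whether these are the 2 replicates is not stated. From this layout the deposited values are the fold enrichment (a ratio to preimmune), the −log10 of the p-value in each set, the −log10 of the global IDR, and the summit offset. Intervals, summits and folds were read as those of the list as a whole. Whether they are those of the first set is not stated. Depth per library is unknown, and precision covers the counting of peaks alone.

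Overlap meant at least 1 bp, and counts from 30 pairs of lists equalled those of bedtools 2.31.1 in 30. Peaks were paired between lists when each was the other's largest overlap. All 12 places are named, with genes from a RefSeq table (Release 6 plus ISO1 MT) without strand, exons or sequence, so exon, intron or UTR status is not given and no sequence is printed. Coordinates of boundaries are not in the table. The region, genes and comparisons were chosen with earlier results of these data known, and the ranks among pairs and the deciles of a list were added after the data were examined. The planned motif counts were not run because no genome was used here. Alternatives were another overlap rule, an IDR limit of 0.01, the strongest 50% of every list, the second set of calls, the window of the 3 genes, joining within 500 bp and ranks by p-value. Python 3.11.15, numpy 2.4.6, pandas 2.3.3, scipy 1.17.1 and matplotlib 3.10.9 were used.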

Additional observations from a re-analysis of the deposited data

How the results depend on the processing

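A share was held to its own Wilson interval, and a number of peaks, sites or places to within 1.5 times. Of 86 alternative values for 19 results, 74 met this and 12 did not. For the shares this is a weak check, since each rests on 4 to 9 peaks or sites and the intervals are wide. That for CP190 peaks found again ran from 30.1 to 95.4%. The window of the 3 genes held the same peaks, so its counts could not differ. With only the strongest 50% of every list the numbers of peaks were 2 (HA, deletion), 3 (HA, wild type), 3 (dCTCF antibody, deletion) and 5 (dCTCF antibody, wild type), the dCTCF sites numbered 2 in the deletion line and 3 in wild type, 2 were sites of both genotypes, and 6 places remained occupied, since fewer peaks entered. There the share found again was 100% for HA (2 of 2) and 100% for dCTCF-antibody peaks (3 of 3) of the deletion line. For wild-type peaks it was 2 of 3 with HA and 3 of 5 with the dCTCF antibody. CP190 was at 100% (2 of 2) of the sites of both genotypes in wild type and at 1 of 2 in the deletion line. A global IDR limit of 0.01 in every list gave 100% (6 of 6) for dCTCF-antibody peaks of the deletion line found again, because the peak at place 9 left the list; place 4, with an IDR of 0.0101, also left, and 11 places remained. This limit shortens 3 of the 6 lists (HA of wild type, dCTCF antibody of both genotypes), which as deposited reach 0.0493 to 0.0499; the other 3 end below it. The other rules on overlap, the second set of calls, the window of the 3 genes and joining within 500 bp kept their results within the limits. Ranking by p-value moved the standing of single peaks within their lists by at most 5.62 percentage points for the first set of calls and 9.36 for the second. Of these 80 values for the 40 peaks, 57 stayed within the Wilson interval of the rank by fold and 23 did not. No paired analysis was possible because each list holds both replicates of a group. Leaving out a replicate was not run, since the lists do not separate them. Unknown depth, 1 list per group and the thresholds of the lists limit every absence to a peak not called.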
